A study of Mus musculus with 15 samples.

Results

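The genes described here are 44 genes whose proteins act in the G2 phase of the cell cycle and in mitosis (M phase). They were chosen by their symbols, with no measured value in the rule, from 24982 gene symbols in the count tables. Earlier results of these data were known when the choice was made. All 44 were found, and all 44 had enough counts to be among the 15696 genes tested. Counts came from polyadenylated RNA of E14TG2 cells, a mouse embryonic stem cell (ESC) line, while they passed from ESCs to epiblast-like cells (EpiLCs). The comparison asks how these cells differ over that transition when Atg7, a gene for an enzyme of autophagosome formation, has been knocked out (KO). There were 5 groups of 3 libraries. ESCs of day 0, labelled as control genotype, were grown on inactivated mouse embryonic fibroblasts with LIF and the kinase inhibitors PD0325901 and CHIR99021. Control cells and Atg7 KO cells were each sampled at day 2 and at day 4 in N2B27 medium with Activin A, bFGF and serum replacement, on fibronectin. All groups share the E14TG2 background, and no KO library of day 0 was analysed here. The sources used here do not give how Atg7 was disrupted or whether the KO cells are 1 clone.

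Entry into mitosis is driven by the kinase CDK1 bound to cyclin B, which is held back by inhibitory phosphorylation and released by CDC25 phosphatases. Transcripts of late cell cycle genes rise through G2 and are kept low in G0 and G1 by the MuvB core complex. MuvB joins B-MYB (Mybl2) and FOXM1 when these genes are switched on, and it binds a short promoter element called the CHR, often near CCAAT boxes that bind NF-Y. In a bulk RNA sample, a lower level of such a gene from fewer cells in G2 or M phase and from less RNA per cell cannot be told apart.

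The CHR was searched as TTTGAA and the CCAAT box as CCAAT, each on both strands, in RefSeq promoters of build GRCm38.p6 that run from 250 bases before to 50 bases after a transcript start. The motifs can overlap by 1 letter, and each was counted on its own. The promoter table matched 38 of the 44 genes with 41 promoters. TTTGAA was in 30 of these 41 promoters (73.17%), against 17.89% of all 32851 promoters of the same length and 12.13% of those of tested genes. CCAAT was in 80.49%, against 37.41% of all promoters, and both were in 63.41%, against 6.95%. Counted by gene, 28 genes had TTTGAA, 30 had CCAAT, 24 had both and 4 had neither. A match is a description of the letters and not a binding site. Within the 250 bases before the start alone, 36.59% of the 41 promoters had TTTGAA, against 15.99% of all promoters, so many matches lay just after the start.

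The 4 stretches that follow are shown because TTTGAA starts within 30 bases before the annotated start in all of them, while some of the genes rose in KO cells at day 2 and others did not. Of 8 genes that met this condition, those with more than 30 exon bases of GENCODE M21 in the stretch (Ube2c, Kif22, Ccnf and Prc1) were left out. Each is 120 bases long, ends at the base before the RefSeq start and is written 5′ to 3′ on the strand of the gene, with TTTGAA or TTCAAA and CCAAT or ATTGG in capitals. Kif11 lies on the plus strand (chr19:37376262-37376381), and Top2a (chr11:99024190-99024309), Cdc20 (chr4:118437344-118437463) and Cdk1 (chr10:69352913-69353032) lie on the minus strand of GRCm38.p6. Of the Cdk1 stretch 26 bases, and of the Cdc20 stretch 9, fall in a GENCODE M21 exon, and of the Kif11 and Top2a stretches 0.
Kif11: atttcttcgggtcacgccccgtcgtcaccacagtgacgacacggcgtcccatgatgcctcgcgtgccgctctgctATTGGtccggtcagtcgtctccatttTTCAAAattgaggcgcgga
Top2a: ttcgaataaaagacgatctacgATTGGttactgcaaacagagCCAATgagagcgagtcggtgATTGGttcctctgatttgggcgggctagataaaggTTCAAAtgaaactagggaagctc
Cdc20: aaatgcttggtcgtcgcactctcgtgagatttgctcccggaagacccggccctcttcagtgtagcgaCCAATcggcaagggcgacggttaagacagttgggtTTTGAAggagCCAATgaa
Cdk1: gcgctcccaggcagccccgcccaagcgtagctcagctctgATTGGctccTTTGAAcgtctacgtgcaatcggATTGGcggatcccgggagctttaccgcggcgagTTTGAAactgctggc
Kif11, Top2a and Cdc20 rose in KO against control cells at day 2 and Cdk1 did not pass the test, with values given below. Among the 28 genes with TTTGAA in the whole window, 22 rose in KO cells at day 2 and the median log2 fold change was 0.44. Among the 10 without it, 7 rose and the median was 0.45. Of all tested genes, 20.4% rose at day 2, and their median was -0.01.

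Total counts lay between 14059237 and 23371546 per library. Levels are given as CPM, the usual per-library scaling of counts with TMM-adjusted library sizes. Changes are log2 fold changes ± standard error (SE) from edgeR's quasi-likelihood test over all 15 libraries, and calls were made at a Benjamini-Hochberg adjusted p under 0.05 across every tested gene. Atg7 itself, the check of the labels, was at 13.6 ± 1.27 CPM (mean ± SD, n = 3) in control and 7.16 ± 0.349 CPM in KO cells at day 2, and at 19.5 ± 0.379 and 11.9 ± 1.28 CPM at day 4. It fell by 0.92 ± 0.11 at day 2 and by 0.71 ± 0.11 at day 4, so the transcript was lowered in every KO library but not removed. All 10 pluripotent cell markers had counts in every library, with sums of 5864 to 6071 CPM in ESCs, 4250 to 4381 CPM in control and 4792 to 4839 CPM in KO cells at day 2, and 3045 to 3280 CPM in control and 3576 to 3718 CPM in KO cells at day 4. Of these 10, 4 rose and 3 fell in KO cells at day 2, with a median log2 fold change of -0.006. At day 4, 6 rose and 0 fell, with a median of 0.30. Of all tested genes, 20.4% rose and 21.4% fell at day 2, and 19.5% rose and 18.1% fell at day 4. At day 2 and day 4, summed trophoblast markers were lower in every KO library (93.9 to 95.7 against 118 to 124 CPM, and 199.7 to 249 against 309.6 to 403 CPM). Summed extraembryonic endoderm markers were higher (143 to 153 against 113 to 132 CPM, and 269 to 284 against 195 to 227 CPM). Of the 4 trophoblast markers tested, 3 fell and 1 rose at day 2, and 3 fell and 0 rose at day 4. Of the 6 endoderm markers, 3 rose at day 2 and 1 at day 4, and 0 fell at either day. The same shares of all tested genes stand beside these counts. The part of these markers in the results was not tested. All 12 fibroblast markers, which the inactivated feeder cells would carry, also had counts in every library. Their sum was 1877, 966 and 254 CPM in the 3 ESC libraries, 291 to 327 CPM in control and 491 to 865 CPM in KO cells at day 2, and 110 to 118 CPM in control and 164 to 213 CPM in KO cells at day 4. ESC replicate 3 had the lowest sum of the ESCs and KO day 2 replicate 2 the highest of its group, and counts in the KO comparisons are given with and without both. The part of the fibroblast markers in the differences between groups was not tested beyond these fits.

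In control cells the G2 and M phase genes fell from ESCs to day 2 and rose from day 2 to day 4. The summed level of the 44 genes was 8983 to 9736 CPM in ESCs, 6556 to 6684 CPM in control cells at day 2 and 10573 to 11180 CPM in control cells at day 4, with no overlap between these groups. From ESCs to day 2, 34 of the 44 fell and 4 rose, where 34.9% of all tested genes fell and 35.6% rose (70.5% in either direction). The median log2 change of the 44 was -0.41, against 0.02 over all tested genes. Aurka (-1.80 ± 0.07), Plk1 (-1.61 ± 0.08), Aspm (-1.38 ± 0.09), Kif11 (-1.33 ± 0.06) and Ccnb1 (-1.32 ± 0.06) fell the most. Sgo2b (1.38 ± 0.31), Ttk (0.58 ± 0.05), Nuf2 (0.46 ± 0.06) and Anln (0.27 ± 0.07) rose, and Cdc25c, Bub1, Ndc80, Sgo1, Kif18a and Smc2 did not pass the test.

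From day 2 to day 4 in control cells, 38 of the 44 rose and 5 fell, where 33.9% of all tested genes rose and 34.6% fell (68.4% in either direction), and the median log2 change was 0.68. Cenpe (1.75 ± 0.09), Cenpf (1.67 ± 0.09), Aurka (1.43 ± 0.07), Plk1 (1.43 ± 0.07) and Kif20a (1.39 ± 0.05) rose the most. Kif20a lies on chromosome 18, whose 400 tested genes had a median change of 0.35 here. The part of that shift in its value was not tested. Every library of day 4 was above every library of day 2 in 39 of the 44 and below in 5, against 37.5% and 38.7% of all tested genes. The 5 that fell were Sgo2b, Aurkb, Cenpa, Kif18a and Ccnb2, and Anln did not pass the test. The calls of Kif18a and Ccnb2 were each lost in 2 of 15 fits that left out 1 library. This comparison and the one with ESCs use the same 3 control libraries of day 2. The KO comparison of day 2 and the test of its change to day 4, given below, use them too. These results are therefore not independent of each other. Against ESCs, control cells at day 4 were higher in 25 of the 44 and lower in 10, where 36.2% of all tested genes were higher and 35.6% lower (71.7% in either direction). Ttk (0.98 ± 0.05) and Nuf2 (0.95 ± 0.06) were among the higher and Aurkb (-0.82 ± 0.09) and Kif14 (-0.76 ± 0.08) among the lower. With a feeder score, which averages the log2 CPM of the collagen genes Col1a1, Col1a2 and Col3a1, as a covariate, 8 of the 44 were higher at day 4 than in ESCs and 10 were lower. The group with the lowest mean was control day 2 for 35 of the 44, and the group with the highest was control day 4 for 19 and ESCs for 11. The same was not counted over all tested genes.

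**Figure D1:**
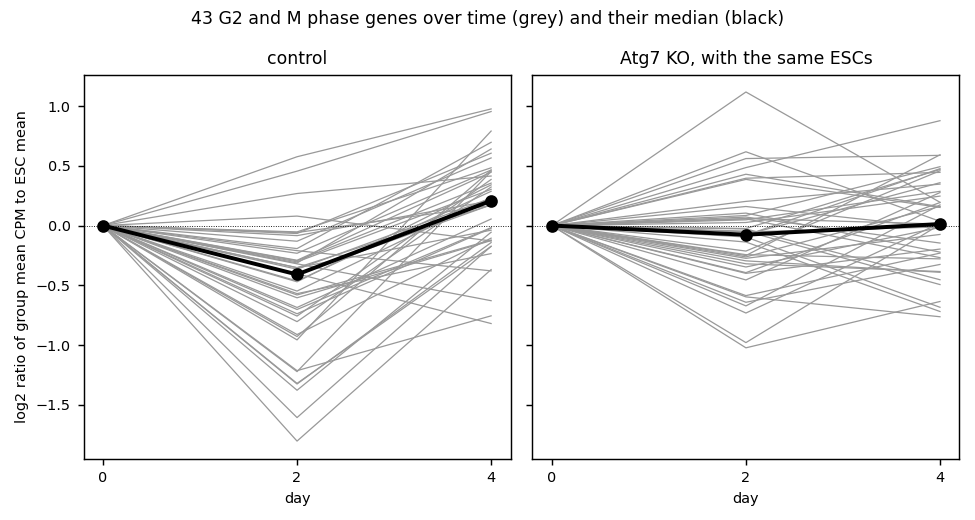
The log2 ratio of each group's mean CPM to the ESC mean (vertical axis) by day (horizontal axis) for control cells at left and Atg7 KO cells at right, with 43 genes in grey and their median in black; both panels start from the same ESC libraries, and Sgo2b is left out because its mean was under 10 CPM in every group. The median lies at -0.41 at day 2 and 0.21 at day 4 in control cells, and at -0.08 and 0.01 in KO cells.

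Atg7 KO cells held higher levels of these genes than control cells at day 2. The summed level of the 44 was 8397 to 9022 CPM in KO cells, above the 6556 to 6684 CPM of the control libraries. These are the same control libraries as in the comparisons over time, so the results are not independent. In the test, 34 of the 44 rose and 0 fell, where 20.4% of all tested genes rose and 21.4% fell (41.8% in either direction). Of all 44, 0 fell at an unadjusted p under 0.05 and 0 fell in DESeq2, in which 34 rose. The median log2 fold change was 0.44, against -0.01 over all tested genes. In 37 of the 44 every KO library was above every control library, as in 29.6% of all tested genes. The 34 that rose did so by 1.11- to 2.55-fold with a median of 1.38-fold, and 6 passed a test against a 1.5-fold change. Without ESC replicate 3 and KO day 2 replicate 2 the count was 37, and with the feeder score as a covariate it was 36. The KO mean at day 2 lay between the control day 2 mean and the ESC mean for 27 genes, above both for 16 and below both for 1. This placement was not counted over all tested genes.

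At day 4 the KO effect was smaller and mostly in the other direction. The summed level was 9589 to 10029 CPM in KO cells, below the 10573 to 11180 CPM of the control cells. Of the 44, 23 fell and 3 rose, where 18.1% of all tested genes fell and 19.5% rose (37.6% in either direction), and the median log2 fold change was -0.16, against -0.01 over all tested genes. In 28 genes every KO library was below every control library and in 7 every one was above, against 27.2% and 27.6% of all tested genes. No fall passed a test against a 1.5-fold change, and the largest was that of Sgo2a (-0.40 ± 0.07). Without ESC replicate 3 and KO day 2 replicate 2, 27 fell and 7 rose. With the feeder score as a covariate 16 fell and 5 rose, and Cenpf, Hmmr, Prc1, Top2a, Bub1b, Ect2, Smc2 and Smc4 were no longer among those that fell, while Ccnb1 was.

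The KO effect itself differed between the days. Its change from day 2 to day 4 was tested as an interaction, and the estimate was negative for 43 of the 44, Ube2c being the exception at 0.11 ± 0.07. It passed the test for 35, all negative, where 17.6% of all tested genes passed as negative and 18.6% as positive (36.1% in either direction). The median was -0.60, against -0.009 over all tested genes. The share of all tested genes with a negative estimate was not counted. There were 17 genes that rose at day 2 and fell at day 4. All 17 passed the test of the difference, which adds little, because that test compares the same estimates, already called with opposite signs. They were Cdc25c, Aurka, Bub1, Bub1b, Cenpf, Ndc80, Sgo2a, Kif20b, Kif23, Kif22, Tpx2, Nusap1, Hmmr, Prc1, Anln, Ect2 and Top2a. Another 15 rose at day 2 and did not pass the test at day 4, of which 12 passed the test of the difference. Cdk1, Ccnb2, Ttk, Kif18a, Smc2 and Smc4 fell at day 4 without a call at day 2, and 5 of these 6 passed it, Kif18a being the exception. Aurkb and Aspm rose at both days, and Aspm rose less at day 4 by the test of the difference. How many of all tested genes had each of these pairs of calls was not counted. Within KO cells, from day 2 to day 4, 22 of the 44 rose and 12 fell, where 31.2% of all tested genes rose and 32% fell (63.2% in either direction).

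**Figure D2:**
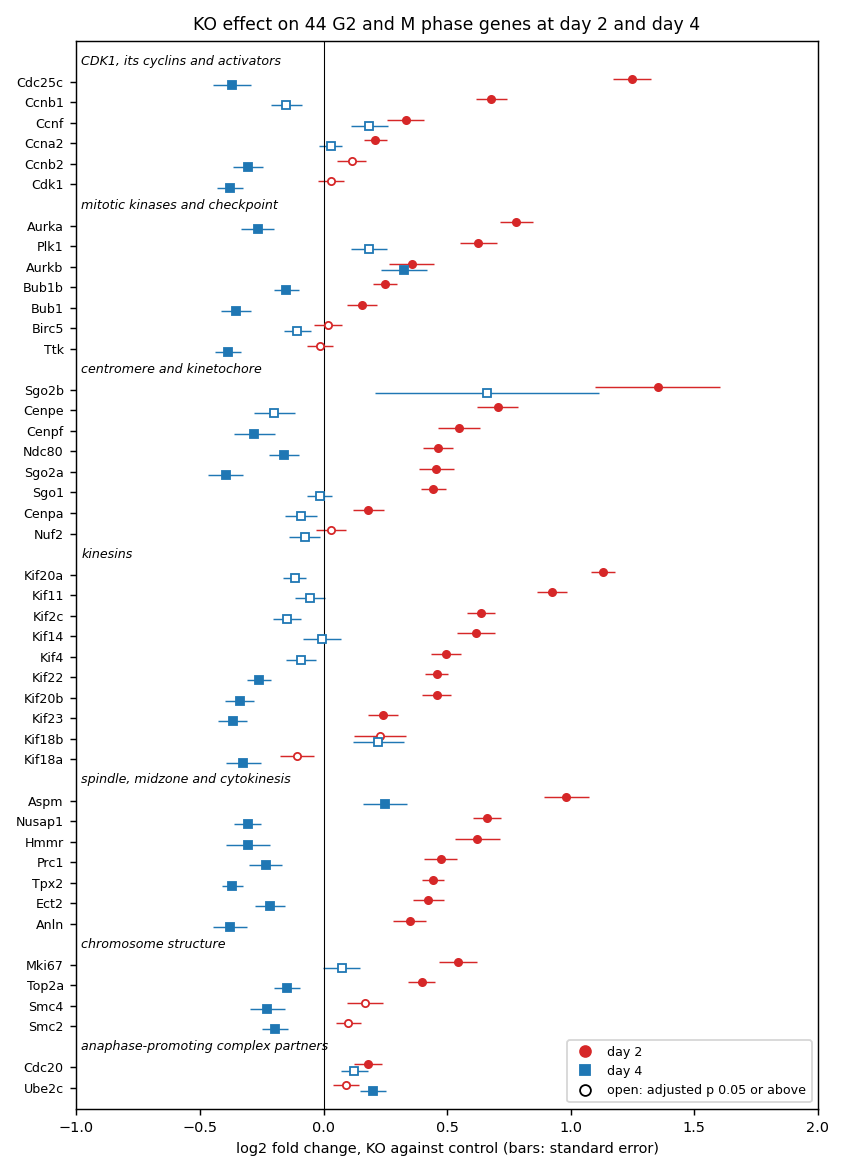
Log2 fold change of KO against control cells (horizontal axis, bars are SE) for each of the 44 genes by role, with day 2 as red circles and day 4 as blue squares, filled where the adjusted p was under 0.05. At day 2 the filled circles all lie above 0, between 0.16 and 1.35, while at day 4 all but 3 of the filled squares lie below it.

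Among CDK1, its cyclins and its activators, 4 of 6 rose in KO cells at day 2, and 3 fell at day 4. Of all tested genes, 20.4% rose at day 2 and 18.1% fell at day 4. Cdc25c, the phosphatase that removes inhibitory phosphates from CDK1, was at 30.3, 37.2 and 33.3 CPM in ESCs. Cdc25c stood at 30.5, 31.8 and 29.7 in control and 79.3, 69.6 and 69.8 in KO cells at day 2, and at 50.3, 48.6 and 50.4 in control and 36.7, 39.0 and 39.7 in KO cells at day 4. The KO libraries of day 2 lay far above all others, and those of day 4 below the control libraries of that day. It rose by 1.25 ± 0.08 at day 2 (adjusted p = 2.21e-08) and changed by -0.37 ± 0.08 at day 4 (adjusted p = 0.00128). Cdc25c (chr18:34732993-34751533, minus strand, GENCODE M21 on GRCm38) lies on a chromosome whose 400 tested genes had a median KO effect of 0.56 at day 2 and 0.01 at day 4, and the part of that shift in its value was not tested. Ccnb1, the main mitotic cyclin, was at 471, 457 and 405 CPM in ESCs. Ccnb1 stood at 178, 169.9 and 186 in control and 298, 275 and 282 in KO cells at day 2, and at 412, 383 and 387 in control and 332, 369 and 363 in KO cells at day 4. Its KO and control libraries did not overlap at either day, in opposite directions. It rose by 0.68 ± 0.06 at day 2 (adjusted p = 8.71e-07), while -0.15 ± 0.06 at day 4 did not pass the test (adjusted p = 0.0672).

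Cdk1 was at 232, 226 and 257 CPM in ESCs. Cdk1 stood at 193, 196 and 190.0 in control and 198, 200.1 and 193 in KO cells at day 2, and at 287, 287 and 307 in control and 225, 223 and 231 in KO cells at day 4. The day 2 groups overlapped, at 0.03 ± 0.05, and at day 4 every KO library was below every control library, at -0.38 ± 0.05 (adjusted p = 3.78e-05). Ccnb2, the second mitotic cyclin, was at 183, 206 and 192 CPM in ESCs. Ccnb2 stood at 163, 173 and 166 in control and 192, 173 and 179 in KO cells at day 2, and at 143, 155 and 149 in control and 125, 113 and 124 in KO cells at day 4. Like Cdk1 it overlapped at day 2 (0.11 ± 0.06) and fell at day 4 (-0.30 ± 0.06).

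Ccna2, the cyclin of S and G2 phase, was at 227, 213 and 223 CPM in ESCs. Ccna2 stood at 182, 173 and 187 in control and 210.1, 204 and 213 in KO cells at day 2, and at 309, 296 and 298 in control and 298, 308 and 316 in KO cells at day 4. Its KO libraries were higher at day 2, by 0.21 ± 0.05, and its day 4 groups overlapped (0.03 ± 0.05). The difference between days (-0.18 ± 0.07) was lost in 10 of 15 fits that left out 1 library. Ccnf, the substrate receptor of a ubiquitin ligase, was at 252, 251 and 322 CPM in ESCs. Ccnf stood at 212, 197 and 212 in control and 261, 254 and 267 in KO cells at day 2, and at 309, 314 and 307 in control and 347, 360.3 and 349.8 in KO cells at day 4. It rose at day 2 (0.33 ± 0.07), and its higher KO libraries of day 4 (0.19 ± 0.07) did not pass the test. At day 2, then, 3 of the 4 cyclins rose while the kinase subunit Cdk1 did not pass the test.

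**Figure D3:**
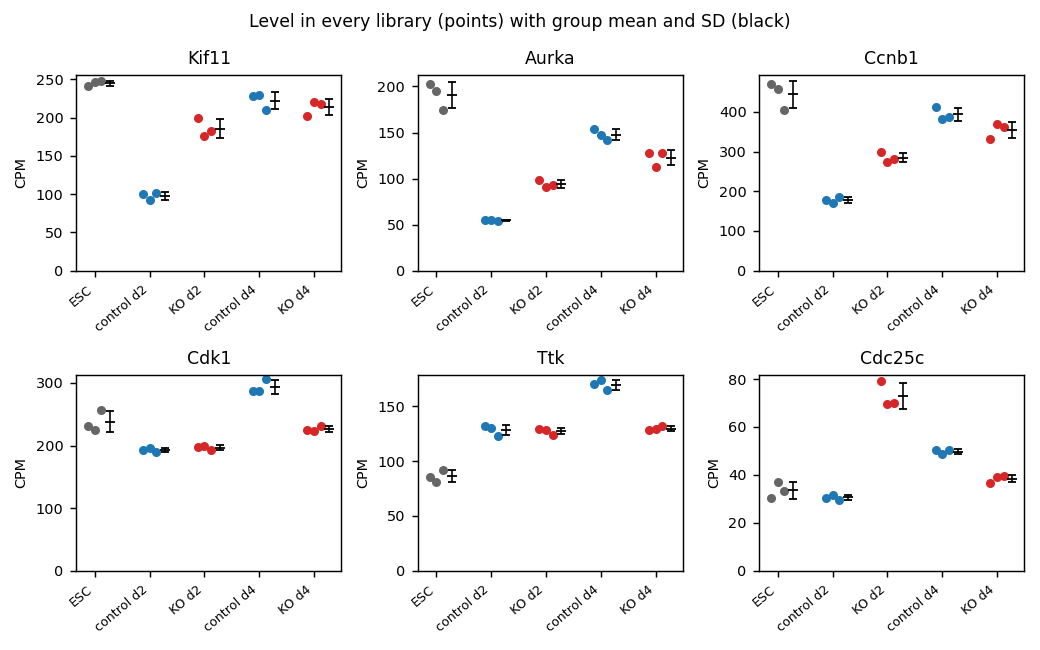
CPM (vertical axis) in every library of the 5 groups for 6 genes, with the group mean and SD in black. Kif11, Aurka and Ccnb1 are lowest in the control libraries of day 2 and higher in the KO libraries of day 2, Cdk1 and Ttk overlap at day 2 and are lower in KO cells at day 4, and Cdc25c is highest in the KO libraries of day 2.

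Of the mitotic kinases and checkpoint genes, 5 of 7 rose at day 2, and at day 4 4 fell and 1 rose. Of all tested genes, 20.4% rose at day 2, and at day 4 18.1% fell and 19.5% rose. Aurka, the kinase of the spindle poles, was at 203, 195 and 175 CPM in ESCs. Aurka stood at 54.9, 55.1 and 54.0 in control and 98.5, 90.6 and 92.6 in KO cells at day 2, and at 154, 148 and 142 in control and 128, 113 and 128 in KO cells at day 4. It had the steepest fall of the 44 from ESCs to control day 2, and its KO libraries stood above the control libraries at day 2 and below them at day 4. The KO effect was 0.78 ± 0.07 at day 2 (adjusted p = 4.18e-07) and -0.27 ± 0.07 at day 4 (adjusted p = 0.00404). Plk1, which acts at centrosomes and kinetochores, was at 197, 194 and 169 CPM in ESCs. Plk1 stood at 61.2, 60.2 and 62.6 in control and 103, 84.1 and 96.9 in KO cells at day 2, and at 163, 172 and 162 in control and 196, 179.6 and 188 in KO cells at day 4. KO libraries were above control libraries at both days, with a rise of 0.63 ± 0.07 at day 2 (adjusted p = 8.87e-06) and 0.18 ± 0.07 at day 4, which did not pass the test (adjusted p = 0.0568).

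Ttk, the kinase that starts spindle checkpoint signalling, was at 85.5, 81.1 and 92.1 CPM in ESCs. Ttk stood at 132, 130.1 and 123 in control and 129, 128 and 124 in KO cells at day 2, and at 170.1, 174 and 165 in control and 128, 129 and 132 in KO cells at day 4. It rose over both steps in control cells, and its KO libraries overlapped the control libraries at day 2 (-0.01 ± 0.05) and fell below them at day 4 (-0.39 ± 0.05, adjusted p = 3.16e-05). Bub1, a checkpoint kinase of the kinetochore, was at 247, 254 and 282 CPM in ESCs. Bub1 stood at 246, 249 and 244 in control and 277, 278 and 268 in KO cells at day 2, and at 284, 331 and 289 in control and 229.9, 236 and 242 in KO cells at day 4. The shift was small at day 2 (0.16 ± 0.06, adjusted p = 0.0487), and that call was lost in 10 of 15 fits that left out 1 library, with values of 0.15 to 0.17. It fell at day 4 (-0.35 ± 0.06).

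Bub1b, the checkpoint protein BUBR1, was at 331, 346 and 359 CPM in ESCs. Bub1b stood at 231, 239.9 and 227 in control and 285, 273 and 270.5 in KO cells at day 2, and at 302, 295 and 282 in control and 265, 254 and 274 in KO cells at day 4. It rose by 0.25 ± 0.05 at day 2 and fell at day 4 (-0.15 ± 0.05), the second of these calls being lost in 4 of 15 fits that left out 1 library. Aurkb, the kinase of the chromosomal passenger complex, was at 115, 116 and 156 CPM in ESCs. Aurkb stood at 102, 90.4 and 99.9 in control and 125, 122 and 127 in KO cells at day 2, and at 71.7, 72.4 and 75.0 in control and 93.1, 95.1 and 86.5 in KO cells at day 4. Its level declined over time in control cells, and it rose in KO cells at both days, by 0.36 ± 0.09 and 0.33 ± 0.09. Birc5, the survivin subunit of the same complex, was at 132, 129 and 136 CPM in ESCs. Birc5 stood at 84.9, 91.1 and 84.7 in control and 86.3, 89.4 and 88.5 in KO cells at day 2, and at 122, 116 and 125 in control and 112, 106 and 119.8 in KO cells at day 4. KO and control libraries overlapped at both days (0.02 ± 0.06 and -0.11 ± 0.06).

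Among the centromere and kinetochore genes, 7 of 8 rose at day 2 and 3 fell at day 4, against 20.4% and 18.1% of all tested genes. Sgo1, which protects cohesin at the centromere, was at 77.4, 83.2 and 83.0 CPM in ESCs. Sgo1 stood at 78.9, 76.3 and 78.8 in control and 109, 107 and 103 in KO cells at day 2, and at 90.9, 90.3 and 92.3 in control and 89.0, 87.8 and 93.8 in KO cells at day 4. The KO libraries of day 2 lay above all others, with a rise of 0.44 ± 0.05 (adjusted p = 5.89e-06), and at day 4 the groups overlapped (-0.02 ± 0.05). Cenpe, a motor that carries chromosomes to the spindle equator, was at 134, 158 and 141 CPM in ESCs. Cenpe stood at 73.3, 71.5 and 77.8 in control and 138, 109 and 117 in KO cells at day 2, and at 262, 256 and 229 in control and 207, 222 and 222 in KO cells at day 4. It rose by 0.70 ± 0.08 at day 2 (adjusted p = 9.70e-06), and at day 4 its lower KO libraries (-0.20 ± 0.08) did not pass the test. Nuf2, a subunit of the complex that grips microtubules, was at 44.4, 52.7 and 49.5 CPM in ESCs. Nuf2 stood at 67.2, 65.1 and 68.7 in control and 65.7, 71.9 and 67.6 in KO cells at day 2, and at 94.3, 94.7 and 94.9 in control and 93.3, 89.3 and 86.6 in KO cells at day 4. It rose from ESCs onwards in control cells and passed the test against KO cells at neither day.

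Ndc80, the partner of Nuf2 in that complex, was at 51.4, 51.6 and 47.4 CPM in ESCs. Ndc80 stood at 48.2, 47.6 and 47.9 in control and 65.1, 63.7 and 69.1 in KO cells at day 2, and at 79.8, 76.3 and 72.7 in control and 65.2, 70.8 and 68.8 in KO cells at day 4. It rose at day 2 (0.46 ± 0.06), and its fall at day 4 (-0.16 ± 0.06, adjusted p = 0.0438) was lost in 10 of 15 fits that left out 1 library. Cenpf, a large protein of the outer kinetochore, was at 246, 245 and 285 CPM in ESCs. Cenpf stood at 111, 105 and 116 in control and 181, 149 and 157 in KO cells at day 2, and at 379.6, 367 and 316 in control and 275, 294 and 305 in KO cells at day 4. It was among the steepest in control cells over both steps, and KO libraries were above the control libraries at day 2 (0.55 ± 0.09) and below them at day 4 (-0.28 ± 0.08). The call at day 4 was lost without control day 4 replicate 1 (-0.23), control day 4 replicate 2 (-0.25) or KO day 4 replicate 1 (-0.24). Cenpa, the histone H3 variant of the centromere, was at 176, 184 and 174 CPM in ESCs. Cenpa stood at 137, 155 and 136 in control and 176, 155 and 155 in KO cells at day 2, and at 113, 111 and 121 in control and 106, 106 and 113 in KO cells at day 4. Its rise at day 2 (0.18 ± 0.06) came with overlapping groups and was lost in 3 of 15 fits that left out 1 library, and at day 4 it did not pass the test (-0.09 ± 0.07). The difference between days (-0.27 ± 0.09) was lost in 6 of 15 such fits.

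Sgo2a, a shugoshin like Sgo1, was at 150.3, 161 and 183 CPM in ESCs. Sgo2a stood at 129.6, 126 and 131 in control and 178, 177 and 175 in KO cells at day 2, and at 198, 182 and 177 in control and 128, 149.7 and 145 in KO cells at day 4. It rose at day 2 (0.46 ± 0.07) and had the lowest KO effect of the 44 at day 4 (-0.40 ± 0.07). Its paralog Sgo2b was at 0.873, 1.08 and 1.12 CPM in ESCs. Sgo2b stood at 2.62, 2.27 and 3.15 in control and 7.63, 7.03 and 5.96 in KO cells at day 2, and at 0.241, 0.759 and 0.236 in control and 0.486, 0.461 and 0.979 in KO cells at day 4. These are the lowest levels of the 44, beside the highest KO effect at day 2 (1.35 ± 0.25). The sources used here do not give how reads shared by the pair were counted, so the split between them is uncertain.

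The kinesins, motors that walk on or take apart microtubules, rose in 8 of 10 cases at day 2, and 4 fell at day 4. The shares of all tested genes were 20.4% and 18.1%. Kif20a, a motor of the spindle midzone, was at 247, 244 and 248 CPM in ESCs. Kif20a stood at 129, 125 and 134 in control and 298, 272 and 280.2 in KO cells at day 2, and at 344, 343 and 333 in control and 323, 302 and 315 in KO cells at day 4. Its rise of 1.13 ± 0.05 at day 2 had the smallest p of the 44 (adjusted p = 9.55e-10), and at day 4 the lower KO libraries (-0.12 ± 0.05) did not pass the test. Kif20a (chr18:34624613-34633277, plus strand, GENCODE M21 on GRCm38) lies on chromosome 18, as Cdc25c does, and the same median of 0.56 stands beside its value. Kif11, which pushes the spindle poles apart, was at 241, 247 and 247 CPM in ESCs. Kif11 stood at 99.8, 92.1 and 102 in control and 199, 176 and 182 in KO cells at day 2, and at 228, 229 and 209 in control and 202, 221 and 218 in KO cells at day 4. Control libraries of day 2 were well below all others, and the KO effect of 0.93 ± 0.06 (adjusted p = 2.95e-08) became -0.05 ± 0.06 at day 4, where the groups overlapped.

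Kif18a, a motor that shortens microtubules at the kinetochore, was at 66.2, 73.3 and 65.0 CPM in ESCs. Kif18a stood at 71.2, 76.7 and 68.1 in control and 66.9, 68.8 and 64.7 in KO cells at day 2, and at 67.2, 61.2 and 58.5 in control and 47.1, 50.4 and 51.7 in KO cells at day 4. Its day 2 groups overlapped (-0.11 ± 0.07), and it fell at day 4 (-0.32 ± 0.07, adjusted p = 0.00196). Its relative Kif18b was at 90.1, 97.9 and 136 CPM in ESCs. Kif18b stood at 66.5, 68.1 and 67.1 in control and 81.5, 75.4 and 79.7 in KO cells at day 2, and at 114, 116 and 107 in control and 130.5, 134 and 129 in KO cells at day 4. Every KO library was above every control library at both days (0.23 ± 0.10 and 0.22 ± 0.10), without a call. Kif2c, a microtubule depolymerase of the centromere, was at 157, 161 and 181 CPM in ESCs. Kif2c stood at 108, 114 and 111 in control and 178, 167 and 173 in KO cells at day 2, and at 156, 149 and 153 in control and 135, 135 and 144 in KO cells at day 4. It rose by 0.64 ± 0.06 at day 2, and its lower KO libraries of day 4 (-0.15 ± 0.06) did not pass the test.

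Kif14, a motor of cytokinesis, was at 109, 113 and 126 CPM in ESCs. Kif14 stood at 50.6, 48.1 and 51.4 in control and 82.6, 68.9 and 78.8 in KO cells at day 2, and at 69.9, 73.0 and 63.5 in control and 65.0, 71.4 and 68.8 in KO cells at day 4. The rise at day 2 was 0.62 ± 0.08, and the groups overlapped at day 4 (-0.01 ± 0.08). Kif4, a motor of the chromosome arms, was at 82.5, 88.6 and 86.4 CPM in ESCs. Kif4 stood at 64.4, 59.7 and 61.8 in control and 92.8, 83.6 and 85.7 in KO cells at day 2, and at 108, 116 and 102 in control and 104, 102 and 99.1 in KO cells at day 4. It also rose at day 2, by 0.50 ± 0.06, and its day 4 groups overlapped (-0.09 ± 0.06). Kif22, another motor of the chromosome arms, was at 159, 163 and 161 CPM in ESCs. Kif22 stood at 99.2, 98.6 and 99.2 in control and 143, 131 and 135 in KO cells at day 2, and at 159, 160.2 and 158 in control and 128, 138 and 133 in KO cells at day 4. Its libraries separated at both days, upwards at day 2 (0.46 ± 0.05) and downwards at day 4 (-0.26 ± 0.05).

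Kif20b, a motor of the midzone, was at 181, 191 and 184 CPM in ESCs. Kif20b stood at 110.0, 99.2 and 109 in control and 148, 147 and 142 in KO cells at day 2, and at 243, 237 and 215 in control and 175, 183 and 191 in KO cells at day 4. It rose by 0.46 ± 0.06 at day 2 and fell at day 4 (-0.34 ± 0.06). Kif23, a motor of the central spindle, was at 149, 159 and 137 CPM in ESCs. Kif23 stood at 121, 123 and 119 in control and 154, 139 and 135 in KO cells at day 2, and at 192, 192 and 185 in control and 146, 144 and 151 in KO cells at day 4. The smaller rise at day 2 (0.24 ± 0.06) was followed by a fall at day 4 (-0.37 ± 0.06), again with no overlap at either day.

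All 7 genes of the spindle, the midzone and cytokinesis rose at day 2, and 6 of the 7 fell at day 4. The shares of all tested genes were 20.4% and 18.1%. Nusap1, which bundles spindle microtubules, was at 106, 122 and 119 CPM in ESCs. Nusap1 stood at 98.2, 96.3 and 101 in control and 164, 155 and 149 in KO cells at day 2, and at 161, 159 and 159 in control and 127, 132 and 128 in KO cells at day 4. KO replicate 1 of day 2 lay above the control libraries of day 4 and the other KO libraries just below them, with a rise against control day 2 of 0.66 ± 0.06 (adjusted p = 4.08e-07), and at day 4 KO libraries were lower (-0.31 ± 0.06, adjusted p = 4.43e-04). Aspm, which focuses microtubules at the spindle poles, was at 161, 173 and 152 CPM in ESCs. Aspm stood at 61.7, 57.1 and 68.1 in control and 137, 111 and 121 in KO cells at day 2, and at 170.1, 159 and 138 in control and 182, 178 and 195 in KO cells at day 4. It was the exception of its group, higher in every KO library at both days, with 0.98 ± 0.09 at day 2 (adjusted p = 8.24e-07) and 0.25 ± 0.09 at day 4 (adjusted p = 0.0367). The call at day 4 was lost in 5 of 15 fits that left out 1 library and with the feeder score. Anln, a scaffold of the contractile ring, was at 257, 298 and 325 CPM in ESCs. Anln stood at 352, 358 and 349 in control and 476, 430.2 and 444 in KO cells at day 2, and at 390.0, 401 and 382 in control and 289, 310.4 and 302 in KO cells at day 4. Its rise at day 2 (0.35 ± 0.07) had the largest p of the group and its fall at day 4 (-0.38 ± 0.07) was of like size.

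Tpx2, which activates the Aurora A kinase on the spindle, was at 333, 331 and 325 CPM in ESCs. Tpx2 stood at 196, 199 and 198 in control and 278, 266 and 263 in KO cells at day 2, and at 317, 337 and 320.1 in control and 247, 251 and 257 in KO cells at day 4. The groups separated at both days, and its fall at day 4 (-0.37 ± 0.04, adjusted p = 8.22e-06) had the smallest p of the 44 there, after a rise of 0.44 ± 0.04 at day 2. Hmmr, a partner of Tpx2 at the spindle, was at 206, 226 and 288 CPM in ESCs. Hmmr stood at 168, 173 and 182 in control and 277, 265 and 263 in KO cells at day 2, and at 312, 287 and 279.7 in control and 224, 240.3 and 247 in KO cells at day 4. It rose by 0.62 ± 0.09 at day 2 and fell at day 4 (-0.30 ± 0.09), a call lost without control day 4 replicate 1 or KO day 4 replicate 1 (-0.26 in both fits).

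Prc1, which crosslinks midzone microtubules, was at 239, 260.2 and 301 CPM in ESCs. Prc1 stood at 174, 187 and 187 in control and 266, 242 and 252 in KO cells at day 2, and at 320.4, 314 and 307 in control and 265, 267 and 268 in KO cells at day 4. Both calls held opposite signs, 0.47 ± 0.07 at day 2 and -0.23 ± 0.07 at day 4. Ect2, the activator of RhoA at the cleavage furrow, was at 286, 287 and 301 CPM in ESCs. Ect2 stood at 221, 236 and 222 in control and 313, 293 and 304 in KO cells at day 2, and at 369, 332 and 323 in control and 273, 317 and 292 in KO cells at day 4. It rose by 0.42 ± 0.06 at day 2 and fell at day 4 (-0.22 ± 0.06), a call lost without control day 4 replicate 1 or KO day 4 replicate 1 (-0.15 and -0.16).

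Among genes of chromosome structure, 2 of 4 rose at day 2 and 3 fell at day 4, against 20.4% and 18.1% of all tested genes. Top2a, the topoisomerase that untangles sister chromatids, was at 912, 911 and 1009 CPM in ESCs. Top2a stood at 750.2, 735 and 794 in control and 1044, 977 and 982 in KO cells at day 2, and at 1499, 1518 and 1399 in control and 1285, 1375 and 1325 in KO cells at day 4. It had the highest CPM of the 44 in every group and rose by 0.40 ± 0.05 at day 2 (adjusted p = 2.99e-05). At day 4 it fell (-0.15 ± 0.05, adjusted p = 0.0387), a call lost in 7 of 15 fits that left out 1 library. Mki67, which coats mitotic chromosomes and is the common marker of cycling cells, was at 304, 326 and 368 CPM in ESCs. Mki67 stood at 197, 187 and 207 in control and 318, 271 and 273 in KO cells at day 2, and at 456, 451 and 398 in control and 449, 462 and 462 in KO cells at day 4. It rose by 0.54 ± 0.08 at day 2 (adjusted p = 4.67e-05) and its day 4 groups overlapped (0.07 ± 0.08). Smc2, a core subunit of condensin, was at 266, 275 and 288 CPM in ESCs. Smc2 stood at 259, 267 and 273 in control and 292, 282 and 283 in KO cells at day 2, and at 408, 383 and 367 in control and 320.3, 342 and 349 in KO cells at day 4. It passed the test at day 4 only (-0.20 ± 0.05, adjusted p = 0.00695), although its KO libraries of day 2 were all higher (0.10 ± 0.05). Its partner Smc4 was at 332, 342 and 399.5 CPM in ESCs. Smc4 stood at 305, 312 and 323 in control and 365, 343 and 348 in KO cells at day 2, and at 619, 553 and 568 in control and 449, 512 and 525 in KO cells at day 4. It followed Smc2, with higher KO libraries at day 2 that did not pass the test (0.17 ± 0.07) and a fall at day 4 (-0.23 ± 0.07), a call lost without control day 4 replicate 1 or KO day 4 replicate 1 (-0.18 and -0.16).

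The 2 partners of the anaphase-promoting complex had a median KO effect of 0.14 at day 2, and 1 of them rose, as did 20.4% of all tested genes. Cdc20, its mitotic activator, was at 289, 294 and 268 CPM in ESCs. Cdc20 stood at 152, 152 and 148 in control and 179, 159 and 174 in KO cells at day 2, and at 256, 261 and 274 in control and 281, 300.4 and 280.2 in KO cells at day 4. It rose by 0.18 ± 0.06 at day 2 (adjusted p = 0.0158), a call lost in 3 of 15 fits that left out 1 library, and was at 0.12 ± 0.05 at day 4 without a call, and the test of the difference between days was not passed (-0.05 ± 0.08). Ube2c, the enzyme that supplies it with ubiquitin, was at 223, 236 and 258 CPM in ESCs. Ube2c stood at 188, 187 and 185 in control and 205, 196 and 197 in KO cells at day 2, and at 224, 239.9 and 233 in control and 264, 267 and 269.5 in KO cells at day 4. It did not pass the test at day 2 (0.09 ± 0.05) and rose at day 4 (0.20 ± 0.05, adjusted p = 0.00648). Every KO library of both genes was above every control library at both days.

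Per kilobase of merged GENCODE M21 exons, scaled to the same total in each library over genes with a length, the levels of the 44 ranged from 2.29 for Sgo2b to 463 for both Cdc20 and Top2a as means over the 15 libraries. Ccnb2 (394), Ube2c (324), Smc4 (305) and Ccnb1 (293) came next. On this scale Cdc20 stood at 494 ± 17.6 (mean ± SD, n = 3) in ESCs and 302 ± 6.29 in control cells at day 2, and Top2a rose to 650.1 ± 38.6 in control cells at day 4. Of the genes with over 10 CPM, Kif18a (24.2), Kif14 (27.1), Cdc25c (34.6) and Ndc80 (36.0) were the lowest. Cdk1 (175) had a lower level per length than its cyclins Ccnb2, Ccnb1 and Ccna2 (226). This order depends on the merged exon length, which was 4934 bases for Cdk1 and 1531 for Ccnb2. In CPM the mean of Cdk1 was above that of Ccnb2 in every group, and against Ccnb1 and Ccna2 the order differed between groups. Which transcripts of these genes were expressed was not tested.

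Of 19 other genes that regulate transcription of G2 and M phase genes, 4 rose and 4 fell in KO cells at day 2, and 4 rose at day 4. Of all tested genes, 20.4% rose and 21.4% fell at day 2 and 19.5% rose at day 4. These shares of the list were near the background. At day 4, 0 of the 19 fell, against 18.1% of all tested genes. Foxm1, the activator of late cell cycle genes, was at 94.1, 97.1 and 82.3 CPM in ESCs. Foxm1 stood at 43.5, 40.9 and 39.7 in control and 78.0, 69.9 and 72.3 in KO cells at day 2, and at 79.7, 81.9 and 76.97 in control and 113, 104 and 112 in KO cells at day 4. It rose at both days, by 0.83 ± 0.07 (adjusted p = 3.78e-07) and 0.46 ± 0.07 (adjusted p = 7.00e-05). Mybl2 was at 1204, 1122 and 1234 CPM in ESCs. Mybl2 stood at 621, 641 and 599 in control and 609, 644 and 631 in KO cells at day 2, and at 319, 328 and 319 in control and 605, 596 and 611 in KO cells at day 4. Its day 2 groups overlapped (0.02 ± 0.05), and at day 4 every KO library was above every control library (0.91 ± 0.05, adjusted p = 8.55e-09). From day 2 to day 4 it fell in control cells and did not pass the test in KO cells. The repressor E2f8 rose at both days (0.48 ± 0.08 and 0.55 ± 0.09). E2f4 and Rbl2, members of the repressing form of the MuvB complex, fell at day 2 (-0.38 ± 0.07 and -0.49 ± 0.12), and E2f4 rose at day 4 (0.26 ± 0.07). The MuvB subunits Lin9, Lin37 and Lin54 passed the test at neither day, and Lin52 fell at day 2 (-0.28 ± 0.08).

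Of 10 inhibitors of CDK1 and of G2 exit, 5 fell and 1 rose at day 2, while 2 fell and 3 rose at day 4, against 21.4% of all tested genes that fell and 20.4% that rose at day 2, and 18.1% and 19.5% at day 4. Sfn, a 14-3-3 protein that holds CDK1 complexes in the cytoplasm, was at 45.1, 50.3 and 70.8 CPM in ESCs. Sfn stood at 26.5, 25.3 and 25.0 in control and 6.29, 8.65 and 9.17 in KO cells at day 2, and at 50.6, 67.5 and 67.3 in control and 31.9, 25.7 and 29.2 in KO cells at day 4. It was lower in every KO library at both days, at -1.66 ± 0.17 (adjusted p = 2.68e-06) and -1.09 ± 0.16 (adjusted p = 5.82e-05). Gadd45a, a stress-induced inhibitor, fell at day 2 (-0.51 ± 0.10) and rose at day 4 (0.68 ± 0.10), Gadd45b fell at both (-0.60 ± 0.14 and -1.40 ± 0.16), and Gadd45g fell at day 2 (-0.68 ± 0.21). The kinase Pkmyt1, which phosphorylates CDK1, fell at day 2 (-0.25 ± 0.07) and rose at day 4 (0.48 ± 0.08), and Wee1, its nuclear counterpart, was at -0.12 ± 0.07 at day 2 without a call and rose at day 4 (0.37 ± 0.07). Fbxo5, an inhibitor of the anaphase-promoting complex, rose at day 2 (0.40 ± 0.05).

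Further genes of mitosis gave calls in both directions, to be read against the 20.4% of all tested genes that rose and 21.4% that fell at day 2, and the 19.5% and 18.1% at day 4. Of 38 other kinetochore, centromere and checkpoint genes, 17 rose and 4 fell at day 2, and 9 rose and 12 fell at day 4. Dsn1 (0.82 ± 0.08) and Ska2 (0.63 ± 0.08), which link kinetochores to microtubules, rose at day 2, and the checkpoint gene Mad2l1 fell at day 4 (-0.37 ± 0.06). Of 29 other spindle, motor and cytokinesis genes, 15 rose and 1 fell at day 2, with the smallest p for Ckap2l (0.87 ± 0.06), and 3 rose and 8 fell at day 4, and Pbk had the smallest p among the falls (-0.55 ± 0.07). Of 19 genes of condensin, cohesin and separase, 7 rose at day 2, among them the condensin subunit Ncapd2 (0.37 ± 0.05), and 3 rose and 7 fell at day 4, among them the securin Pttg1 (-0.75 ± 0.09). The median log2 fold changes of these lists at day 2 were 0.18, 0.22 and 0.18. Of 16 subunits and partners of the anaphase-promoting complex, 4 rose and 2 fell at day 2, and 6 rose and 3 fell at day 4, and the shares that rose at day 2 and fell at day 4 were near those of all tested genes. Of 11 further partners of CDK1, 4 rose and 3 fell at day 2, and Cks2, a small CDK-binding protein, rose at day 2 (0.42 ± 0.07) and fell at day 4 (-0.37 ± 0.07).

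Further lists cover earlier cell cycle phases, and the same shares of all tested genes stand beside their counts. These were 20.4% higher and 21.4% lower at day 2, and 19.5% higher and 18.1% lower at day 4. Of 22 DNA replication genes, 1 rose and 12 fell in KO cells at day 2, with a median log2 fold change of -0.16, and 6 rose and 6 fell at day 4. Rrm2, a subunit of ribonucleotide reductase, fell at day 2 (-0.58 ± 0.07), as did the uracil glycosylase Ung (-0.60 ± 0.06), while Mcm10 rose (0.28 ± 0.07). Their summed level was 4862 to 4951 CPM in control and 4103 to 4410 CPM in KO cells at day 2, so the direction was opposite to that of the 44. Of 14 cyclins, CDKs and inhibitors of G1 and S phase, 3 rose and 6 fell at day 2, and 2 rose and 5 fell at day 4. At day 2 Ccnd1 (0.89 ± 0.10) and the inhibitor Cdkn1b (0.87 ± 0.10) rose, and Cdkn1c (-1.31 ± 0.13) and Ccnd3 (-0.63 ± 0.07) fell. The fibroblast markers had a higher sum in KO than in control cells at both days, with 5 of 12 called as risen at day 2 and 1 at day 4, against 20.4% and 19.5% of all tested genes. Their median KO effect was 1.13 at day 2 and 1.17 at day 4, above the 0.44 and -0.16 of the 44. Every KO library was above every control library for 9 of the 12 at day 2 and 8 at day 4. The shares of all tested genes were 29.6% and 27.6%. For 2 of the 12 every KO library of day 4 was below every control library, against 27.2% of all tested genes. The part of these markers in the KO effects on the 44 was not tested beyond the fits with the feeder score.

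**Figure D4:**
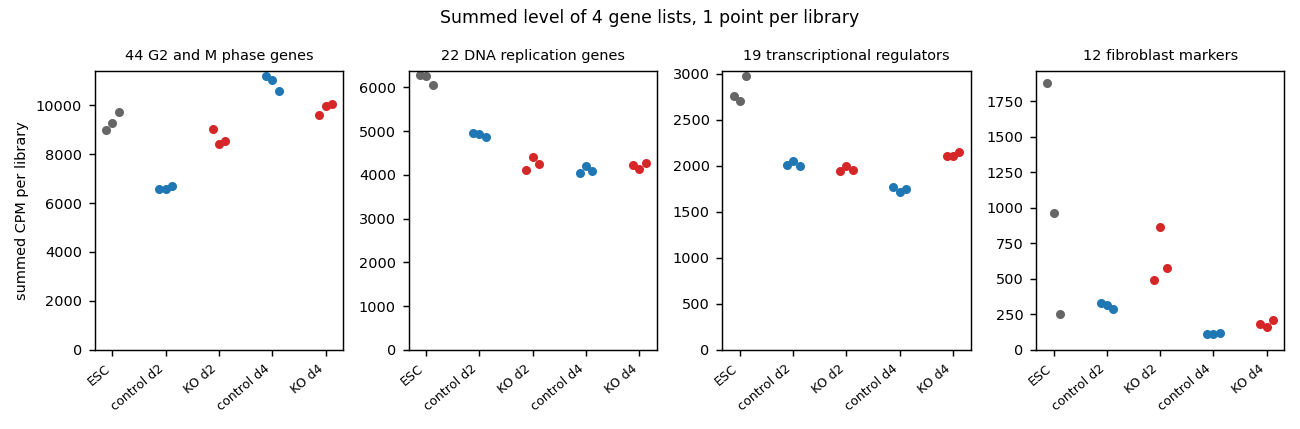
Summed CPM per library (vertical axis, 1 point per library) in the 5 groups for the 44 G2 and M phase genes, 22 DNA replication genes, 19 transcriptional regulators and 12 fibroblast markers. The KO libraries of day 2 lie above the control libraries for the 44 genes (8397 to 9022 against 6556 to 6684 CPM) and below them for the replication genes (4103 to 4410 against 4862 to 4951 CPM).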

How the data were processed

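The authors deposited counts of reads per gene for each of the 15 libraries, in whole numbers and without normalization. The submitters' processing notes name STAR, featureCounts, StringTie and DESeq2 and the builds mm10 and GRCm38, with no role or order. The sources used here do not give the annotation, the strandedness or the treatment of multi-mapped reads.

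Genes were filtered with filterByExpr (minimum count 10, minimum total 15), which left 15696 of 24982, and scaled by TMM. The quasi-likelihood test of edgeR 4.0.16 in R 4.3.3 was fitted to all 5 groups together, with 10 residual degrees of freedom, and p-values were adjusted by Benjamini-Hochberg over all tested genes. SE is the log2 fold change divided by the square root of its F statistic. DESeq2 1.42.0, other filters, a feeder score as a covariate, a replicate block and each library left out were alternatives. Whether replicate libraries stem from different cultures is not stated, and each p-value then reflects only library-to-library spread, which may be technical. Replicate pairs differed by 3.201 to 31.78 times the sampling noise (chi-square per degree of freedom), so none was counted as a duplicate.

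The 44 genes, the gene lists and the marker lists were chosen with earlier results of these data known. Values in every library are given for all 44. Of the lists of transcriptional regulators and of CDK1 inhibitors any gene could be named, and of the other lists up to 2 higher and 2 lower genes with the smallest p per comparison.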

Additional observations from a re-analysis of the deposited data

Results flagged for a closer look

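For 35 of the 44 genes the KO effect differed between the days by edgeR's quasi-likelihood test of the interaction, with Benjamini-Hochberg adjusted p from 3.89e-08 to 0.0458. The values that follow are the log2 KO effect of day 4 minus that of day 2. The difference was below -0.90 for Cdc25c (-1.62), Kif20a (-1.25), Aurka (-1.05), Kif11 (-0.98), Nusap1 (-0.97), Hmmr (-0.93) and Cenpe (-0.90). It lay between -0.90 and -0.60 for Sgo2a (-0.85), Ccnb1 (-0.83), Cenpf (-0.83), Tpx2 (-0.81), Kif20b (-0.80), Kif2c (-0.78), Aspm (-0.73), Anln (-0.73), Kif22 (-0.72), Prc1 (-0.71), Ect2 (-0.64), Kif14 (-0.62), Ndc80 (-0.62) and Kif23 (-0.61). The remaining differences were those of Kif4 (-0.59), Top2a (-0.55), Bub1 (-0.51), Mki67 (-0.47), Sgo1 (-0.46), Plk1 (-0.44), Ccnb2 (-0.42), Cdk1 (-0.41), Bub1b (-0.40), Smc4 (-0.40), Ttk (-0.37), Smc2 (-0.30), Cenpa (-0.27) and Ccna2 (-0.18). Cdc25c and Kif20a lie on chromosome 18, whose 400 tested genes had a median difference of -0.59, and the part of that shift in their values was not tested. With 1 library left out, the difference of Ccna2 was lost in 10 of 15 fits and that of Cenpa in 6.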

How the results depend on the processing

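The counts of the 44 genes kept their size within 1.5 times except as given here. Against a 1.5-fold change, 6 were higher in KO cells at day 2, 0 were higher and 0 lower at day 4, and 11 had a negative difference between days. In the same test 1 was higher and 14 lower in control day 2 against ESCs, 20 and 1 in control day 4 against day 2, 3 and 3 in control day 4 against ESCs, and 4 and 2 in KO day 4 against KO day 2. That test called 847 of all genes at KO day 2 (6556 otherwise) and 614 at KO day 4 (5903). It called 5273 (11072) in control day 2 against ESCs, 4794 (10741) in control day 4 against day 2, 5792 (11257) in control day 4 against ESCs, 3655 (9922) in KO day 4 against KO day 2 and 846 (5674) for the difference. The genes higher in KO cells at day 4, 3 in all, became 5 with the feeder score, 6 with only the groups compared and 7 without ESC replicate 3 and KO day 2 replicate 2 together. They numbered 2 to 7 with 1 library left out, 6 without ESC replicate 1 and 7 without ESC replicate 3. The genes lower in control day 4 than day 2, 5 in all, were 2 with the stricter filter, 3 with the feeder score and 3 to 5 with 1 library left out, the lowest without control day 2 replicate 2. In control day 4 against ESCs, 8 were higher with the feeder score (7113 of all genes called) and 6 lower with the stricter filter. TTTGAA was in 36.59% of promoters within the 250 bases before the start.

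With the feeder score the log2 change from ESCs to control day 4 reversed for Ccnb1 (0.074), Ccnf (-0.36), Plk1 (0.017), Bub1 (-0.051), Sgo2a (-0.20), Kif18b (-0.81), Hmmr (-0.38), Prc1 (-0.26), Anln (-0.060) and Mki67 (-0.086), and that of Prc1 from KO day 2 to KO day 4 became -0.19. The cause was not tested. With 1 library left out, 31 to 36 genes were higher at KO day 2, 16 to 27 lower at KO day 4 and 33 to 35 had a negative difference.

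Same-numbered replicates did not deviate together (r from -0.05 to 0.06), and the numbers were not taken to pair samples. With the replicate as a block, 33 were higher and 0 lower at KO day 2, 3 higher and 21 lower at KO day 4, and 35 had a negative difference. The block gave 4 higher and 34 lower in control day 2 against ESCs, 38 and 5 in control day 4 against day 2, 25 and 9 in control day 4 against ESCs and 22 and 12 in KO day 4 against KO day 2. Libraries correlated best with their own number in 6 of 6 cases for ESCs and control day 2 (r from 0.022 to 0.046), 4 of 6 for the day 2 groups, 2 of 6 for ESCs and control day 4, and 0 of 6 for the other pairs of groups. Sgo2b, under 10 CPM throughout, is the gene whose values are most limited by depth.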

Other observations

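The libraries of a group were ordered alike across many of the 44 genes. KO day 2 replicate 1 was the highest of its group in 35 genes and replicate 2 the lowest in 29. Among ESCs, replicate 3 was the highest in 24 genes and replicate 1 the lowest in 26. Control day 4 replicate 3 and KO day 4 replicate 1 were each the lowest of their group in 28 genes. The median coefficient of variation of the 44 was 7.20% in ESCs and 3.34% to 4.24% in the other groups.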
